A study of Schizosaccharomyces pombe with 4 samples.

Results

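The 6 genes wdr8, uds1, bet1, mus81, top1 and qtr1 are fission yeast (Schizosaccharomyces pombe) genes at whose starts the transcription factor Sak1 gave the larger binding signal and the forkhead factor Fkh2 a smaller signal or no listed peak. They were chosen by the normalised tag counts of earlier lists of the same libraries, so the presence of a Sak1 peak and the excess over Fkh2 describe the choice and were not tested. A gene was taken as bound when the centre of a peak lay from 1000 bp upstream to 250 bp downstream of its annotated 5′ end. The genes are 6 of 5113 nuclear protein-coding genes in the annotation. By this rule wdr8, uds1 and bet1 had peaks of both factors, and mus81, top1 and qtr1 had a Sak1 peak and no Fkh2 peak.

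Factor binding was mapped by ChIP-seq, the sequencing of DNA recovered with an immunoprecipitated protein, with 1 library for each of 4 strains, all from asynchronous cultures in YES medium. Strain JLP1586 carried a TAP tag, a handle for pull-down on IgG beads, at the C-terminus of Fkh2, strain JLP1792 at that of Sak1 and strain JLP1670 at that of Sep1, and strain F108 was untagged. The Sep1-TAP culture was treated with the proteasome inhibitor bortezomib, given in the labels as 1 mM for 45 min. No treatment is named for the other 3. Each library combines 2 biological experiments, so there is no replicate error, and intervals below cover counting error only.

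Sak1 belongs to the RFX family, whose members bind the X-box, an inverted repeat with arms that begin GTT, through a winged-helix domain. Fkh2 and Sep1 are forkhead factors, which also bind through a winged helix and recognise words around GTAAACA. In fission yeast the forkhead factors are known for the timed transcription of genes in mitosis and at cell separation. A peak here marks where tagged protein was recovered with DNA, and does not show that the gene responds to the factor.

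The Sak1 peaks of the 6 genes share an inverted repeat with arms GTT and AAC held 8 bases apart, GTTNNNNNNNNAAC, which was noticed when these sequences were read. The repeat with 8 bases on each side is printed 5′ to 3′ on the strand of the gene, with the repeat in capitals, since it is the feature that the 6 places have in common. Sequence and coordinates are from the RefSeq assembly ASM294v3.

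wdr8 (II:1468448-1468477, plus strand): agctaatcGTTGCTATGACAACgaattgta
uds1 (II:1566301-1566330, plus strand): caatgttaGTTGTCATGGAAACgaaattca
bet1 (I:1051342-1051371, plus strand): acattacaGTTGCCCCAGTAACacattatg
mus81 (III:462572-462601, plus strand): aaatctcgGTTGTCCCGGCAACcatgctaa
top1 (II:2944637-2944666, minus strand): aatatttgGTTGTCATGACAACgagtgtac
qtr1 (I:939817-939846, minus strand): acctattgGTTGCTATAGCAACttaataag

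In each of the 6 the letter after the first GTT was G. At top1 and qtr1, which had no Fkh2 peak, the whole 14 bases were a complete inverted repeat, with 7 of 7 positions paired. The outer GTT and AAC pair in every copy because the pattern sets them, so only the inner positions could differ. At wdr8, uds1 and mus81 5 of 7 positions were paired, and at bet1 4 of 7. Complete pairing did not go with the absence of Fkh2 throughout, since mus81 had no Fkh2 peak either. The repeat at qtr1 lies in the annotated 3′ UTR of mis6, the gene upstream on the same strand, which encodes a kinetochore protein. The other 5 repeats lie between protein-coding genes.

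Longer stretches are given where they show how the repeat lies relative to the forkhead word. They are the parts of the Sak1 peak between protein-coding genes, on the strand of the gene, with the 14-base repeat and the forkhead word GTAAACA in capitals, the latter read as TGTTTAC where it is on the other strand.

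bet1 (I:1051211-1051445, plus strand): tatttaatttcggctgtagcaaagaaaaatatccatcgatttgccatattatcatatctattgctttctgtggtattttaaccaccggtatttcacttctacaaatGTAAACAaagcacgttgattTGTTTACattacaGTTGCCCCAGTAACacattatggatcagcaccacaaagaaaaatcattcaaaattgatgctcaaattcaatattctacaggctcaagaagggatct
uds1 (II:1566193-1566364, plus strand): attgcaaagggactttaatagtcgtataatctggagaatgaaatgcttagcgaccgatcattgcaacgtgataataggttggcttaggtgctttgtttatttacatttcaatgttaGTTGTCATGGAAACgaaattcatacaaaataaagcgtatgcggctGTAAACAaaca
wdr8 (II:1468335-1468509, plus strand): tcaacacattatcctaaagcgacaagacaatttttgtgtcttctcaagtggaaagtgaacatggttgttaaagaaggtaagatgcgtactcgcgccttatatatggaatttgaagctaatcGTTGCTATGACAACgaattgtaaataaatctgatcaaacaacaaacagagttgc
top1 (II:2944597-2944682, minus strand): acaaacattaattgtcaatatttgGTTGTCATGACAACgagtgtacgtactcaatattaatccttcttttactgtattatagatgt

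The bet1 stretch holds 2 forkhead words, 1 on each strand, beside the repeat, and the uds1 stretch holds 1 near the gene. The wdr8 and top1 stretches hold none.

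Sak1 peaks lay at all 6 genes, which the rule fixed, against 1.06% of nuclear protein-coding genes (54 of 5113). In the Sak1 list of 47 peaks, 46 of them nuclear and 1 mitochondrial, they ranked 4, 6, 10, 14, 15 and 23, from near the top to the middle of the list, by the normalised tag count that also served to choose them, which is the tags in the peak per 10000000 tags of the library. Fkh2 peaks lay at 3 of the 6, which the choice also fixed. Of all genes 2.84% had one, and of nuclear Sak1 peaks 36 of 46 overlapped one. No Sep1 peak lay at any of them, against 0.176% of genes (9 of 5113), and the Sep1 list held 11 peaks in all. The 3 lists come from libraries of 795148 (Sak1), 1042990 (Fkh2) and 906632 (Sep1) tags, and peaks were 235, 155 and 209 bp wide.

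The gene wdr8 (SPBC32H8.09, II, 1468510 to 1470473, plus strand) encodes a WD repeat protein that anchors microtubule minus ends at the spindle pole body together with Msd1 and the kinesin Pkl1. Its Sak1 peak (1468335 to 1468569) had a normalised tag count of 3999 (95% counting interval 3572 to 4464, 318 tags) and 14.95 fold over the untagged library, from 13 control tags. The Fkh2 peak (1468437 to 1468591) had a count of 1606 (1376 to 1874, 168 tags), 13.01 fold over 6 control tags, and ranked 37 of 152. The Sak1 count was the higher, which is how the gene was chosen. The Sak1 centre lay 58 bp upstream of the gene start and the Fkh2 centre 4 bp downstream of it, 62 bp apart, against a median of 28 bp over the 36 places with peaks of both factors. At 6 of those 36 places, wdr8 included, the centres were at least that far apart. The Sak1 peak reached into the first exon of wdr8 and the 3′ end of an antisense long noncoding RNA, SPNCRNA.5198. Long noncoding RNAs on the strand opposite to the gene lay under part of the Sak1 peak at all 6 genes. At bet1 that RNA, SPNCRNA.2459 (I, 1050546 to 1051269), lay wholly upstream of the gene and was not antisense to it. How often such RNAs lie under other peaks was not counted, so the 6 of 6 has no background here.

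The gene uds1 (SPBC27.04, II, 1566365 to 1569561, plus strand) is annotated as a septation protein. Its Sak1 peak (1566193 to 1566427) had a count of 3496 (3097 to 3932, 278 tags), 37.89 fold over 4.5 control tags. The Fkh2 peak (1566192 to 1566346) had a count of 2406.5 (2118 to 2723, 251 tags), 21.35 fold over 5.5 control tags, and ranked 19 of 152. The Fkh2 signal here was the highest of the 3 genes with both peaks. The Sak1 centre lay 55 bp and the Fkh2 centre 96 bp upstream of the gene start, both over the antisense noncoding RNA SPNCRNA.1447 and in the 337 bp between meu25 and uds1.

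The gene bet1 (SPAC23C4.13, I, 1051669 to 1052724, plus strand) encodes a SNARE, a membrane fusion protein of transport between the endoplasmic reticulum and the Golgi. Its Sak1 peak (1051211 to 1051445) had a count of 2918 (2554 to 3318, 232 tags). The Fkh2 peak (1051278 to 1051432) had a count of 1289.6 (1085 to 1532, 135 tags) and ranked 50 of 152. The folds over the control, 283.56 for Sak1 and 125.33 for Fkh2, rest on 0.5 control tags each, the lowest value in these lists, and their size has little meaning. Both centres lay farther from the gene than at the other 5 genes, 341 and 314 bp upstream of the start. The whole Sak1 peak lay in the 532 bp between bet1 and hhp2, a casein kinase gene, whose transcript runs toward bet1.

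The gene mus81 (SPCC4G3.05c, III, 462720 to 464714, plus strand) encodes the catalytic subunit of an endonuclease that, with Eme1, cuts branched DNA at stalled forks and in recombination. Its Sak1 peak (462487 to 462721) had a count of 2553 (2214 to 2929, 203 tags), 15.58 fold over 8 control tags. The centre lay 116 bp upstream of the start codon, which is also the annotated gene start because this model has no 5′ UTR. The nearest Fkh2 peak on the chromosome was 32.3 kb away.

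The gene qtr1 (SPAC1687.19c, I, 938311 to 939769, minus strand) encodes a queuine tRNA-ribosyltransferase, which puts the modified base queuine into tRNA anticodons. Its Sak1 peak (939665 to 939899) had a count of 2503 (2167 to 2876, 199 tags), 10.13 fold over 12 control tags. This was the lowest fold over the control of the 6. The centre lay 13 bp upstream of the gene start and thus within the mis6 transcript, which ends directly where qtr1 begins. The nearest Fkh2 peak was 47.5 kb away.

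The gene top1 (SPBC1703.14c, II, 2941734 to 2944596, minus strand) encodes DNA topoisomerase I, which relaxes supercoils by cutting 1 strand. Its Sak1 peak (2944448 to 2944682) had the lowest count of the 6, 1874 (1585 to 2200.0, 149 tags), at 18.33 fold over 5 control tags. It was also the 1 peak of the 6 centred inside the gene, 31 bp downstream of the start and in the first intron. The nearest Fkh2 peak was 118.0 kb away.

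**Figure D1:**
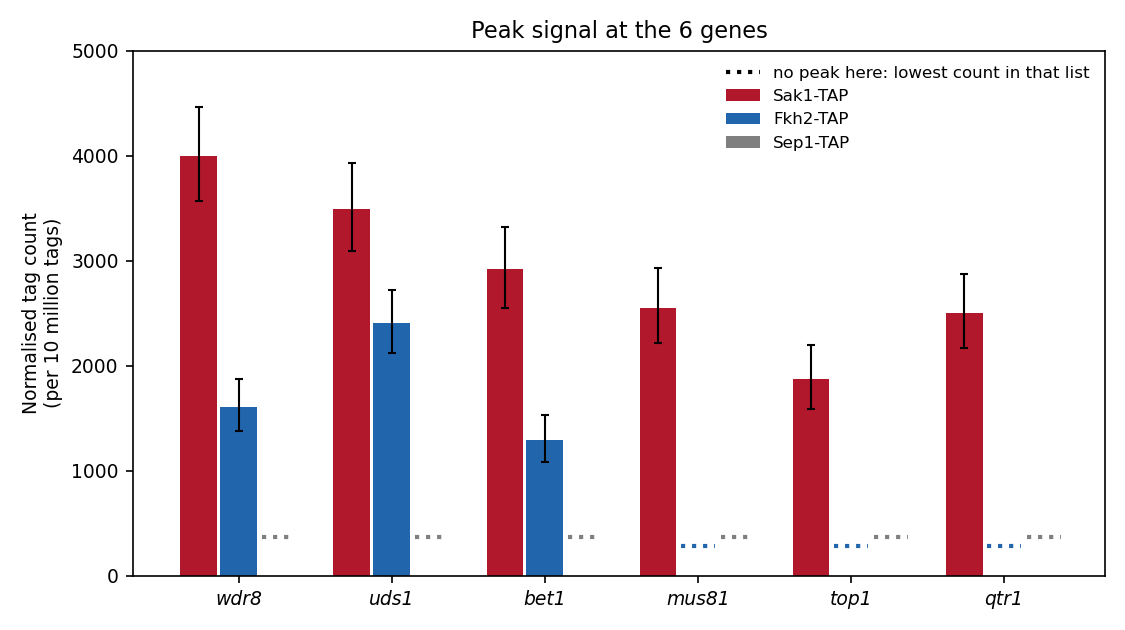
Normalised tag count (per 10000000 tags) of the Sak1, Fkh2 and Sep1 peaks at the 6 genes, with bars for listed peaks, 95% counting intervals as error bars, and, where none is listed, dotted lines at the lowest count found anywhere in that factor's list. Sak1 counts run from 1874 at top1 to 3999 at wdr8 and exceed the Fkh2 counts at wdr8, uds1 and bet1.

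The lists hold no value at mus81, top1 and qtr1 for Fkh2, so how much Fkh2 signal lay there is not known. The lowest count in the Fkh2 list was 278.0 and in the Sep1 list 364.0. Every listed Fkh2 peak was at least 4.01 fold over the control. With the control tags of the Sak1 window spread evenly over it, 4 fold over the control comes to a Fkh2 count of about 433 at mus81, 271 at top1 and 649 at qtr1. A peak also had to stand out from its surroundings, for which no value is given at places without a peak. Fkh2 at these 3 genes, and Sep1 at all 6, were therefore not listed rather than shown to be absent. The Sep1 library also differs in the bortezomib treatment, and factor and treatment cannot be told apart there.

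Among all nuclear Sak1 peaks, 21.7% (10 of 46) had no overlapping Fkh2 peak, and mus81, qtr1 and top1 are the 3 with the highest counts among those 10. The other 7 had counts of 440.2 to 1434. They lay at slp1 with eng1 (rank 30, count 1434), ght8 (rank 33), mae2 (rank 42), pgm1 (rank 43), hxk2 (rank 44) and at 2 places without a gene start in reach (ranks 46 and 47). Shared Sak1 peaks had counts down to 666.5, so the 3 members and 5 of the other 7 lay within their range. The members were chosen by these counts, and their place in the order is a description. In the plot of Sak1 peaks in order of count, the squares for mus81, qtr1 and top1 stand apart on the left from the other squares.

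**Figure D2:**
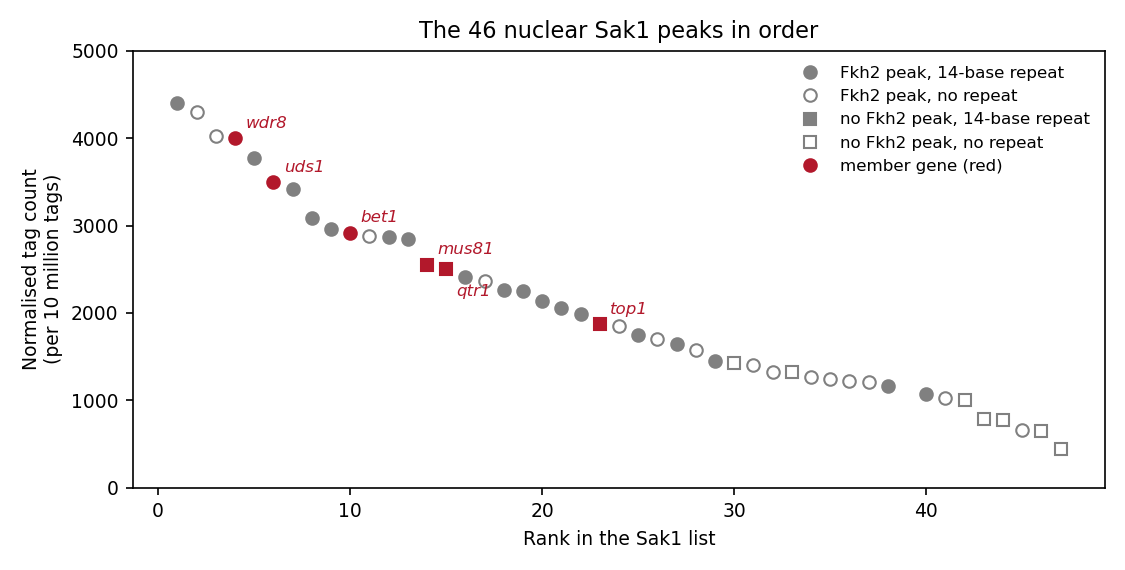
Normalised tag count (per 10000000 tags) of the 46 nuclear Sak1 peaks against rank in the list; squares have no overlapping Fkh2 peak, filled symbols hold the 14-base repeat within 150 bp of the centre, and red marks the 6 genes. All 6 red symbols are filled, which reading the repeat from these genes fixed, and rank from 4 to 23. The 7 other squares are open and rank from 30 to 47.

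The ratio of Sak1 to Fkh2 normalised tag count was 2.49 at wdr8 (95% counting interval 2.05 to 3.01), 2.26 at bet1 (1.815 to 2.81) and 1.45 at uds1 (1.22 to 1.73). A higher Sak1 than Fkh2 count was not unusual among shared places: 52.8% of them (19 of 36) had one, and the median ratio was 1.02. The ratio compares 2 different tagged proteins from separate libraries, so a ratio of 1 does not mark equal occupancy. For 10 of the 36 the interval lay below 1, and for 16 it included 1. For the remaining 10 the interval lay above 1, and these 10 include the 3 genes. Of the other 7, knh1 (4.14), spo12 (3.79), myp2 (3.44) and klp5 (2.835) had higher ratios than wdr8. The intervals of spo12, myp2 and klp5 overlap that of wdr8, and the interval of knh1 (3.06 to 5.68) does not. At myp2 the 2 centres were 180 bp apart, so the windows differ. By fold over the untagged library the knh1 ratio was 0.414, while those of spo12, myp2 and klp5 stayed above 1. The budding yeast gene of the name SPO12 acts in mitotic exit, and in fission yeast myp2 encodes a myosin of the contractile ring and klp5 a mitotic kinesin. Ratios nearest to the median of the 3 genes on the log2 scale were those of rep2 (2.215), SPAC29A4.02c (2.36), cdc4 (2.07), klp5 and myp2, over 36 places and 2 libraries. Below uds1, the next ratios were those of adg2 (1.29) and ags1 (1.26), and 9 places in all lay between 1 and uds1. The first places under 1 were plo1 (0.994) and cdc25 (0.984). Other genes thus lie above and among the 3 in the order of ratios, and the intervals of wdr8, bet1, SPAC29A4.02c, rep2 and cdc4 overlap.

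These ratios depend on the window in which tags were counted, since Sak1 peaks were 235 bp wide and Fkh2 peaks 155 bp. Per bp of peak width the ratios were 1.64 at wdr8, 1.49 at bet1 and 0.958 at uds1. The widths are the same at all 36 shared places, so this multiplies every ratio by 0.66 and keeps their order. The counting interval of uds1 scaled by 0.66 includes 1, so a lower Sak1 density there is not shown. The median per bp was 0.675, and uds1 stayed above it. As folds over the untagged library they were 1.15, 2.26 and 1.775 in the same order, and as folds over the local background 1.20, 0.913 and 0.810. The folds over the untagged library rest on 13 and 6 control tags at wdr8, 4.5 and 5.5 at uds1 and 0.5 and 0.5 at bet1, and have no interval here. The description of binding as dominated by Sak1 thus depends on the scale. At uds1 the ratio was below 1 per bp, within counting error of 1, and by local fold, and at bet1 by local fold.

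**Figure D3:**
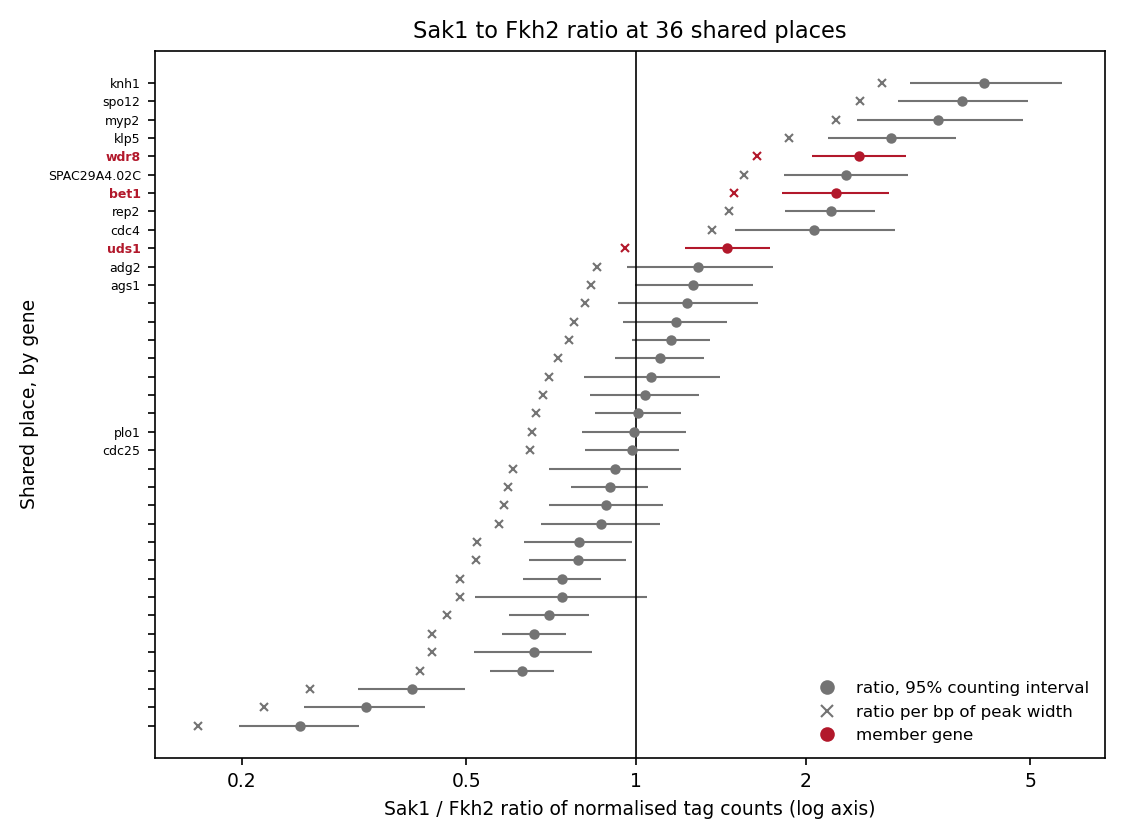
Ratio of Sak1 to Fkh2 normalised tag count at the 36 places with peaks of both factors (log axis), with 95% counting intervals; crosses give the ratio per bp of peak width red marks wdr8, bet1 and uds1, and names are given for places described in the text. The gene knh1 heads the order at 4.14, wdr8 is at 2.49, and the cross of uds1 falls just under 1.

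The 14-base repeat lay within 150 bp of the Sak1 centre at all 6 genes, and within the called peak at each. It lay at 52.2% of nuclear Sak1 peaks (24 of 46) and in 10.4% of windows of the same length at gene starts (531 of 5113). Among the 40 other Sak1 peaks it lay at 18 (45.0%, exact 95% interval 29.3 to 61.5), and among 116 Fkh2 peaks without a Sak1 peak at 15 (12.9%, 7.42 to 20.4). In a form with G after GTT, GTTGNNNNNNNAAC on either strand was again at all 6 genes, at 43.5% of Sak1 peaks and at 3.83% of gene starts. Since the pattern was read from these 6 sequences, 6 of 6 was fixed by that choice. It is a description, and an interval on it has no sampling meaning. Of the 10 Sak1 peaks without a Fkh2 peak, mus81, qtr1 and top1 had the repeat, by that choice, and the 7 others had none. Those 7 rank from 30 to 47 in the Sak1 list, and shared Sak1 peaks of like rank mostly lacked the repeat too.

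The repeat lay close to the Sak1 centre at most of the genes. Its middle was 5 bp from the centre at uds1, 10 bp at wdr8, 18 bp at mus81, 28 bp at bet1 and 49 bp at qtr1, against a median of 25.5 bp over the 24 Sak1 peaks that hold it. At top1 it was 86 bp away, the largest of the 24 distances, with 84 bp at cdc15 next. Measured from the gene, the repeat lay 48, 50, 55 and 62 bp upstream of the start at wdr8, uds1, top1 and qtr1, and 134 and 313 bp upstream at mus81 and bet1. At top1 the repeat is thus upstream of the gene although the peak is centred within it. At bet1 the repeat was 1 bp from the Fkh2 centre, while at wdr8 and uds1 it was 52 and 46 bp from it.

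Single words of the RFX type gave a more mixed picture. Of the word GTTGCCA and its variants, which were GTTACCA with A as letter 4, GTTGTCA with T as letter 5 and GTTGCTA with T as letter 6, searched on both strands, at least 1 lay at wdr8, uds1, top1 and qtr1, so at 4 of 6, against 71.7% of Sak1 peaks (33 of 46) and 12.7% of gene starts. These words overlap the 14-base repeat. The repeats of mus81 and bet1 hold the shorter GTTGCC.

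The forkhead word GTAAACA lay within 150 bp of the Sak1 centre at uds1, bet1 and qtr1, so at 3 of 6, against 71.7% of Sak1 peaks (33 of 46), 13.9% of gene starts and 72.4% of Fkh2 peaks without a Sak1 peak. Of the Sak1 peaks with a Fkh2 peak, 29 of 36 held it, and of those without, 4 of 10. Among the 6 genes it was at 2 of the 3 with a Fkh2 peak and 1 of the 3 without. At bet1 both copies lay within 35 bp of the Fkh2 centre. At uds1 the word was 88 bp from the Fkh2 centre and outside the Fkh2 peak. A copy of the shorter TAAACA, on the other strand, lay 19 bp from the uds1 Fkh2 centre and inside that peak. At qtr1 the word was 83 bp from the Sak1 centre, in the 3′ UTR of mis6, with no Fkh2 peak listed. At wdr8 there was neither GTAAACA nor the shorter TAAACA within 150 bp of either centre, and it was the 1 of 36 shared places whose Sak1 window lacked TAAACA. At mus81, without a Fkh2 peak, TAAACA lay at 2 positions, 47 and 46 bp on either side of the Sak1 centre. TAAACA is a common word, in 39.7% of windows at gene starts.

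**Figure D4:**
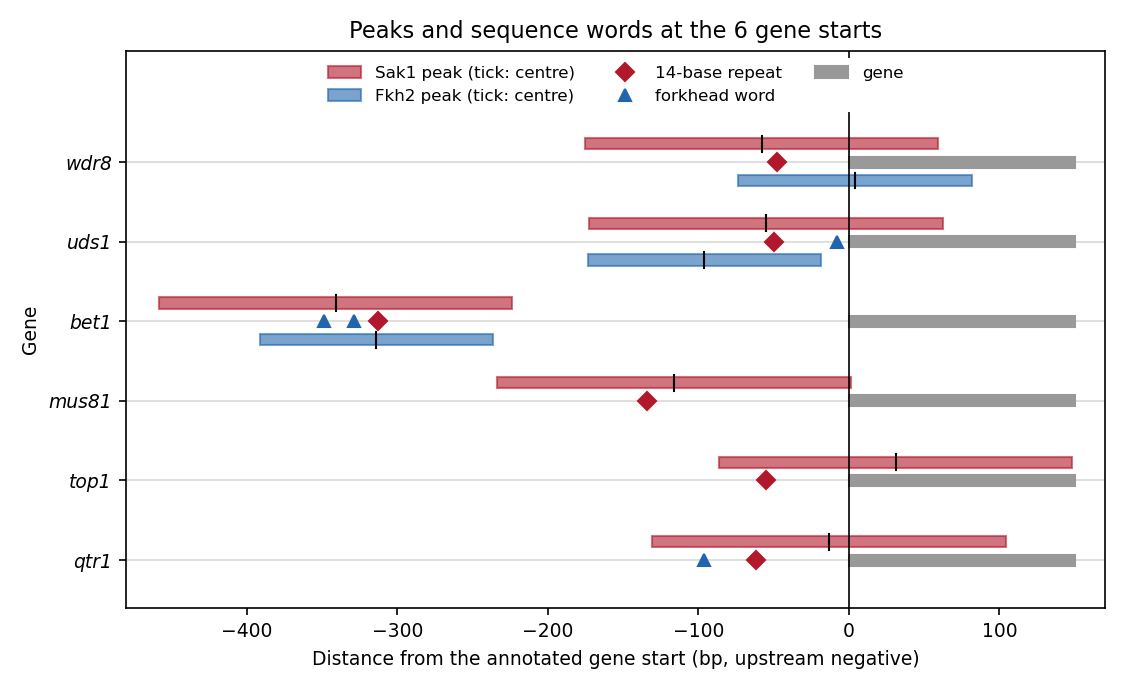
Sak1 and Fkh2 peaks (bars, with ticks at their centres), the 14-base repeat and the forkhead word GTAAACA relative to the annotated gene start (distance in bp, upstream negative) at the 6 genes, with the first 150 bp of each gene in grey. The repeat lies upstream of every gene start, 48 to 313 bp away, and the forkhead word at uds1, bet1 and qtr1.

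**Figure D5:**
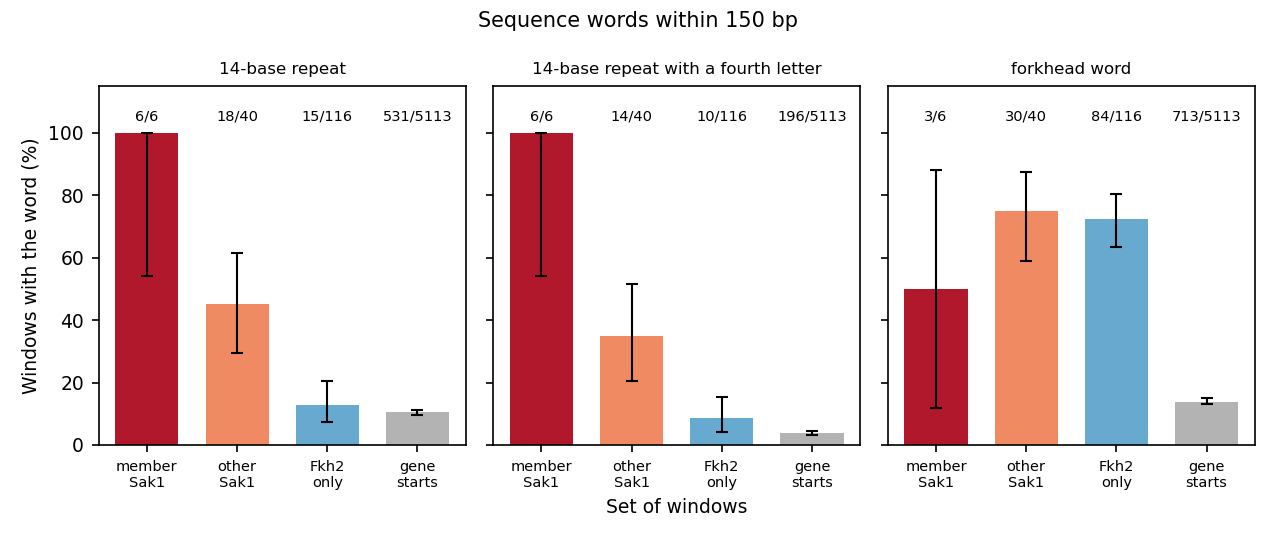
Percent of windows within 150 bp that hold the 14-base repeat, its form with G after GTT, or the forkhead word, in the 6 Sak1 peaks, the 40 other nuclear Sak1 peaks, the 116 Fkh2 peaks without Sak1 and 5113 gene starts, with exact 95% intervals. The repeat is at 6 of 6 and 18 of 40 Sak1 peaks, and the forkhead word at 3 of 6 and 30 of 40. For the repeat and its form with G, the bar of the 6 peaks was fixed by reading the pattern from them. Its interval has no sampling meaning.

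Other genes of the members' pathways were also searched for peaks. Over 5 pathway lists, with no list for uds1, there were 64 genes in the annotation. None of these had a Sak1 or Sep1 peak in reach and 2 had a Fkh2 peak. At the backgrounds given above, 1.06% of genes for Sak1 and 2.84% for Fkh2, such counts are not unusual and say little about the lists. Among 17 spindle pole body and microtubule anchoring genes, with msd1 and pkl1 of the Wdr8 complex, mto2 alone had a Fkh2 peak. Among 12 genes of early secretion, with the SNARE genes sed5, bos1 and sec22, uso1 alone had one. No peak lay at the 18 genes of joint molecule processing, with eme1, the partner of mus81, and the helicase gene rqh1, the 9 of topoisomerases and replication, with top2 and top3, or the 9 of tRNA modification, with qtr2. The genes fkh2, sep1 and sak1 themselves had no peak of any factor in reach, while plo1 had Sak1 and Fkh2 peaks.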

How the data were processed

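ChIP-seq peak lists of 3 tagged strains were analysed, each made against the same untagged library. The submitters' processing notes name HOMER, SAMtools 0.1.18 and Bowtie2 2.1.0. The genome build used by the authors is not given in the sources used here. HOMER's findPeaks, per the file headers, set an FDR of 0.001, 4 fold over the control and over the surrounding 10000 bp, and a Poisson limit of 1e-04, and estimated fragment lengths of 230 (Sak1), 110 (Fkh2) and 208 bp (Sep1). Normalised tag counts and control tags are signals deposited by the authors, the former per 10000000 tags. The deposited folds over control and local background are ratios, the p-values are the peak caller's, and the deposited focus ratio (a fraction) and findPeaks score were not used.

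Tags per peak were recovered from the normalised count and the library total, and the control total, about 487530 tags, from the deposited tags scaled to the control. Counting intervals are exact Poisson, and those of ratios and shares exact Clopper-Pearson (Python 3.11.15, SciPy 1.17.1). Coordinates were read against ASM294v3, in which GTAAACA lay within 150 bp of 112 of 152 Fkh2 centres, and of 12 and 18 when centres were moved 1000 bp either way. Overlap meant at least 1 bp. Gene assignment, word search and intervals were tested on simulated data. Members, words, gene lists and comparison rules were chosen with earlier results of these data known, and the 14-base repeat after its sequences were read. All 6 members are reported in full; comparison genes were the other Sak1 peaks without Fkh2, shared places with higher ratios than the members, those next to a ratio of 1 and the 5 nearest in ratio. No test was run because each factor has 1 library. The list of library barcodes was not used, 1 gene of the shared places is not reported here, and 4 listed symbols not found in the annotation used were dropped.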

Additional observations from a re-analysis of the deposited data

How the results depend on the processing

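Of 37 alternatives over 10 results, 27 left the result on the same side and within its tolerance. Counted per bp of peak width, the Sak1 to Fkh2 ratio was 1.64 at wdr8, 1.49 at bet1 and 0.958 at uds1, and the number of shared places with more Sak1 than Fkh2 fell from 19 to 9. As fold over the control the ratio was 1.15 at wdr8 and 1.775 at uds1. As fold over the local background it was 1.20 at wdr8, and below 1 at bet1 (0.913) and uds1 (0.810). The cause of these shifts was not tested beyond the widths of the windows. With only GTTGCC and GTTACC in place of the RFX words, 2 members (bet1 and mus81) held one. That set leaves out any form of GTTGTCA and GTTGCTA, the words held by wdr8, uds1, top1 and qtr1. A reach of 500 bp upstream and 0 downstream left out the Sak1 peak of top1 and the Fkh2 peak of wdr8, which lie downstream of the start. No paired analysis was possible because each group has 1 library that combines 2 experiments; for the same reason no replicate could be left out. Depth limits the smaller signals: the weakest peak at the 6 genes, that of Fkh2 at bet1, rests on 135 tags, and the lists hold no value for genes without a peak.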

Other observations

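Across the whole Sak1 list the 14-base repeat was more frequent at high counts, at 12 of the first 15 peaks and 12 of the 31 below them. The first 15 include wdr8, uds1 and bet1 and end with mus81 and qtr1, at ranks 14 and 15, so the cut falls just after 2 members. The 31 include top1. The repeat was read from these 6 genes, so they hold it by that choice and raise the share at high counts. The difference is given as a description and was not tested. Complete pairing of the 14 bases, 7 of 7 positions with GTT and AAC paired by the pattern, occurred at 4 of the 24 Sak1 peaks with a repeat. These were top1 and qtr1, and mde6 and mef1, where Fkh2 peaks were also listed with higher counts than Sak1. The Sak1 to Fkh2 ratio was 0.660 at mde6, and 0.867 at mef1, where the counting interval of 0.679 to 1.10 includes 1.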
